A study of Rattus norvegicus with 3 samples.

Results

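The genes described here were those for cyclic nucleotide signalling in the rat heart, chosen by symbol from the gene list of the deposited counts: phosphodiesterases (Pde followed by a digit), adenylyl cyclases (Adcy), guanylyl cyclases (Gucy) and adrenergic receptors (Adra1, Adra2 and Adrb). The rule found 55 genes of 22250, which were 27 phosphodiesterase symbols, 10 adenylyl cyclases, 9 guanylyl cyclases and 9 adrenergic receptors. Single nuclei were sequenced from the heart of Sprague Dawley rats at 12 months of age, in 1 library for each of 3 genotypes. WT rats were healthy littermates, BMD rats (Becker muscular dystrophy model) carried an in-frame deletion of several exons of Dmd made by genome editing, and DMD rats (Duchenne model) carried a Dmd deletion that leaves the muscle without dystrophin. The nuclei came from the apex with parts of the septum and both ventricles, no treatment is named, and the number of animals behind a library is not given in the sources used here. There were no replicates, so no test between genotypes was made. Every interval below covers counting error at 95% and leaves out the variation between nuclei and between animals. Both mutant libraries were set against the same WT library, so the BMD and DMD ratios share it.

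Adrenergic receptors of the beta class raise cyclic AMP through adenylyl cyclases, while those of the alpha-1 class act through phospholipase C and calcium. Cyclic GMP is made by soluble guanylyl cyclase, a nitric oxide receptor built of an alpha and a beta subunit, and by membrane guanylyl cyclases that bind peptides. Phosphodiesterases degrade both messengers. In cardiomyocytes, Pde3a and Pde4d are known for controlling cyclic AMP near calcium-handling proteins, and in smooth muscle cyclic GMP relaxes the vessel wall.

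UMIs (unique molecular identifiers, each a counted RNA molecule) were summed over all nuclei of a class in a library and given as CPM, the UMIs of a gene per 1000000 UMIs of that class and library. The libraries held 19215994 to 21609238 UMIs, and 24664 barcodes were taken as nuclei, with a median of 1213 to 1487 UMIs. At most 20 nucleus barcodes were shared between any pair of libraries. Clusters were named from marker genes, without using any of the 55 genes, and gave 10 named classes. The cardiomyocyte-like nuclei raised 11 of 11 listed markers in a cluster of 4546 and 7 of 11 in one of 405. The monocyte-like class, of 296 nuclei, also carried the cardiomyocyte markers, at a summed 16238 CPM in WT against 16394 in BMD and 13731 in DMD, and 47.6% of its nuclei were scored as doublets. In the cardiomyocyte-like nuclei the targeted gene, Dmd, was at 16374 CPM in WT against 20319.9 in BMD and 18609.9 in DMD. The deletions remove a small part of this long gene, so its count does not check the labels. The WT counts carry another Cell Ranger version in their header than the BMD and DMD counts, and a difference in counting cannot be told apart from a difference that BMD and DMD both show against WT.

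Of the 55 genes, 36 had at least 100 UMIs over all nuclei, 11 had 10 to 99 and 8 had under 10. The genes under 10 UMIs were Gucy2g, Gucy2f, Gucy2d, Adra2a, Adra2c, Adrb3, Pde6g and the second identifier of Pde4c. Gucy2d and Adrb3 had 0 UMIs in every library. The cardiomyocyte-like nuclei held 20 genes with at least 100 UMIs, the fibroblast-like nuclei 29, and the endothelial-like and pericyte or smooth muscle-like nuclei 21 each.

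A class was called the highest for a gene when its lowest library lay above the highest library of every other class. This held for 19 of the 36 genes with at least 100 UMIs, beside 23.4% of all 12428 genes at that count. Of the 19, 9 were highest in the pericyte or smooth muscle-like nuclei, 3 in the endothelial-like, 2 each in the cardiomyocyte-like and the T or B cell-like, and 1 each in the fibroblast-like, endocardial-like and Schwann cell-like nuclei. Among all 12428 genes, 2.18% were called highest in the pericyte or smooth muscle-like, 2.73% in the endothelial-like, 3.27% in the cardiomyocyte-like, 3.71% in the T or B cell-like, 2.6% in the fibroblast-like, 1.02% in the endocardial-like and 2.33% in the Schwann cell-like nuclei. To set beside the 19, shares of the 2906 genes called in any class were 9.33% for pericyte or smooth muscle-like, 11.7% for endothelial-like and 14.0% for cardiomyocyte-like nuclei. They were 15.9% for T or B cell-like, 11.1% for fibroblast-like, 4.37% for endocardial-like and 9.98% for Schwann cell-like nuclei. Without the monocyte-like class, a choice made after seeing the data, 24 genes were called, and the added genes were Pde4dip, Pde11a, Adra1a and Adra1b for cardiomyocyte-like nuclei and Adra1d for pericyte or smooth muscle-like nuclei.

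**Figure D1:**
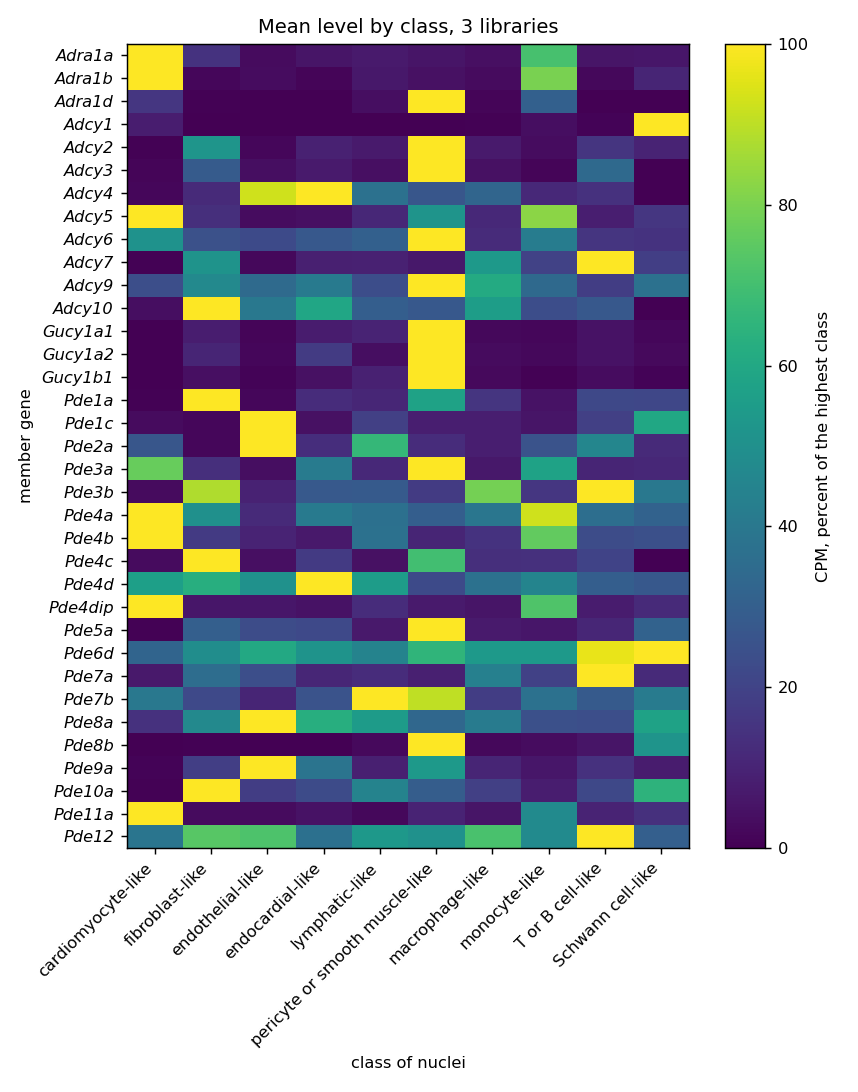
Mean CPM over the 3 libraries for 35 of the 36 genes with at least 100 UMIs (rows) in the 10 classes of nuclei (columns), as percent of the class with the highest mean of that gene. The soluble guanylyl cyclase subunits Gucy1a1, Gucy1a2 and Gucy1b1 are near their maximum in the pericyte or smooth muscle-like column alone, while Pde4d is spread over many classes.

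Among the receptors, the alpha-1 receptors Adra1a and Adra1b reached 100 UMIs in cardiomyocyte-like nuclei and the other 7 did not. In these nuclei Adra1a was at 907 CPM in WT against 823 in BMD and 671 in DMD, and in fibroblast-like nuclei at 139 CPM in WT against 106 in BMD and 104 in DMD. Adra1b was at 349.6 CPM in WT against 162 in BMD and 161 in DMD, and at 5.36 CPM in WT against 3.42 in BMD and 3.49 in DMD in the fibroblast-like ones. For both genes the lowest cardiomyocyte-like library lay above every library of the fibroblast-like nuclei. Adrb1, the main beta receptor of cardiomyocytes, was near the limit of detection: its UMIs in cardiomyocyte-like nuclei were 10, 15 and 10 in WT, BMD and DMD, or 1.56 CPM in WT against 2.22 in BMD and 2.45 in DMD. It had 0 UMIs in all 3 libraries of the fibroblast-like nuclei, which allows up to 1.03 CPM in BMD (3 UMIs), the shallowest of them. No difference of Adrb1 between genotypes was detectable at this depth.

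Among the adenylyl cyclases, 1 was called highest in cardiomyocyte-like nuclei, 4 in pericyte or smooth muscle-like nuclei, 1 in T or B cell-like nuclei and 1 in Schwann cell-like nuclei. Adcy5, one of the main cardiac isoforms, was highest in cardiomyocyte-like nuclei at 814 CPM in WT against 786 in BMD and 899 in DMD, and reached 446 CPM in WT against 439 in BMD and 406 in DMD in pericyte or smooth muscle-like nuclei. Adcy6, the other main cardiac isoform, was highest in the latter, at 224 CPM in WT against 157 in BMD and 194 in DMD. Adcy2, Adcy3 and Adcy9 were also highest there, and the mutants lay on both sides of WT in Adcy2. Adcy1, a calmodulin-activated isoform known from neurons, was highest in Schwann cell-like nuclei at 76.1 CPM in WT against 78.0 in BMD and 98.7 in DMD, where the UMIs were 6, 4 and 5. Adcy7, an isoform known from blood cells, was highest in T or B cell-like nuclei at 99.7 CPM in WT against 109 in BMD and 99.4 in DMD.

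The 3 measured subunits of soluble guanylyl cyclase were all highest in pericyte or smooth muscle-like nuclei. Gucy1a2, an alpha subunit, stood at 3315 CPM in WT against 3258 in BMD and 3209.6 in DMD there, and in endocardial-like nuclei at 529 CPM in WT against 701 in BMD and 483 in DMD. Gucy1a1, the other alpha subunit, was at 1469 CPM in WT against 1639 in BMD and 1268 in DMD. Gucy1b1, the beta subunit, was at 504 CPM in WT against 476 in BMD and 438 in DMD, and in lymphatic-like nuclei at 48.0 CPM in WT against 43.7 in BMD and 40.3 in DMD. At a finer clustering, clusters of 1355 pericyte-like and 243 smooth muscle-like nuclei were named in place of this class. Of the latter, 33.3% were scored as doublets, against 2.07% of the former. In the smooth muscle-like cluster 3 endothelial markers were also raised, and Ibsp and Bglap stood among its leading genes. Gucy1a2 was then at 3858 CPM in WT against 3824 in BMD and 4056 in DMD in the pericyte-like and 1957 CPM in WT against 1619.9 in BMD and 1071 in DMD in the smooth muscle-like nuclei, with no overlap of the libraries.

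Phosphodiesterases were called highest in 6 classes. The cAMP-specific enzymes Pde4b and Pde4d were highest in different classes. Pde4b was highest in cardiomyocyte-like nuclei, at 1297 CPM in WT against 1213 in BMD and 1185 in DMD. Pde4d was highest in endocardial-like nuclei, at 1256 CPM in WT against 1950.1 in BMD and 1119 in DMD, where BMD stood above the other libraries. Pde3a, which cyclic GMP inhibits, had its highest mean in pericyte or smooth muscle-like nuclei, at 2791 CPM in WT against 4871 in BMD and 3616 in DMD, and overlapped there with the cardiomyocyte-like nuclei, at 3509 CPM in WT against 2756 in BMD and 2381 in DMD. Pde5a, the cyclic GMP phosphodiesterase of vessel walls, was highest in pericyte or smooth muscle-like nuclei at 178 CPM in WT against 202 in BMD and 238 in DMD. So was the cAMP-specific Pde8b, at 639.9 CPM in WT against 389.6 in BMD and 548 in DMD.

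Pde1c, a calmodulin-activated enzyme, was highest in endothelial-like nuclei at 469 CPM in WT against 486 in BMD and 519 in DMD. Pde8a and Pde9a, the latter specific for cyclic GMP, were highest in the same class. Pde8a was at 392 CPM in WT against 432 in BMD and 516 in DMD, while Pde9a was at 151 CPM in WT against 140.0 in BMD and 125 in DMD. WT had the lowest value of Pde8a and the highest of Pde9a, without regard to counting error. Pde1a, of the same calmodulin-activated family as Pde1c, was highest in fibroblast-like nuclei at 646 CPM in WT against 596 in BMD and 539.6 in DMD. Pde7a, a cAMP-specific enzyme known from T cells, was highest in T or B cell-like nuclei at 713 CPM in WT against 616 in BMD and 431 in DMD. The symbols Pde4dip (myomegalin, a scaffold protein), Pde6d (a carrier of prenylated proteins) and Pde12 (an RNA-degrading enzyme) matched the rule but encode no cyclic nucleotide phosphodiesterase.

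In cardiomyocyte-like nuclei, the alpha-1 receptor gene Adra1b was lower in both mutants, at 162 CPM in BMD and 161 CPM in DMD where WT had 349.6 CPM. Adcy1 and Adcy6 were the other lower genes in BMD, and Pde4a and Pde2a in DMD. Pde3b and Gucy1a2 were higher in both, the latter in BMD with an interval that held 0, and Pde1c was higher in BMD and Pde11a in DMD. Pde4d was near its WT level in both mutants, with log2 ratios of 0.03 and 0.08. A gene was counted as higher or lower at a CPM ratio of at least 1.5-fold, among genes with at least 100 UMIs over the 3 libraries. Of the 20 cyclic nucleotide genes so measured, 3 were higher and 3 lower in BMD, where 7.48% of all 9086 genes measured were higher and 8.49% lower. In DMD, 3 of 20 were higher and 3 lower, where 11.5% of all genes were higher and 9.01% lower. Scaled by TMM factors in place of total UMIs, the DMD split was 3 higher and 6 lower. The median log2 ratio of the 20 genes was -0.12 in BMD and -0.19 in DMD, beside -0.06 and -0.01 for all genes.

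**Figure D2:**
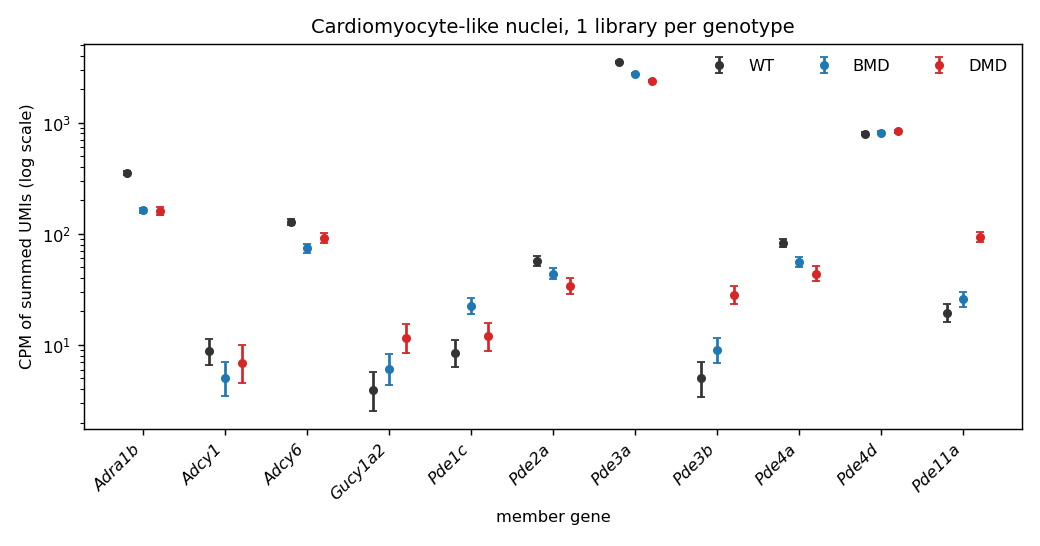
CPM (log scale) in cardiomyocyte-like nuclei of the WT, BMD and DMD libraries for Pde3a, Pde4d and every gene past 1.5-fold in either mutant; bars are exact Poisson 95% intervals and each point is 1 library. The WT point of Adra1b lies above both mutants and the DMD point of Pde11a above the other two.

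Adra1b, an alpha-1 receptor, was at 349.6 CPM in WT against 162 in BMD and 161 in DMD, with both mutants below WT and close to each other. Its log2 ratio to WT was -1.11 (-1.21 to -1.0) in BMD and -1.12 (-1.25 to -1.0) in DMD, and the ratio of DMD to BMD was -0.01 (-0.16 to 0.13). Adra1a had log2 ratios of -0.14 (-0.19 to -0.09) in BMD and -0.44 (-0.50 to -0.37) in DMD, and so was lower by less than 1.5-fold. Adra1b is the receptor gene for which both mutant libraries were past 1.5-fold.

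Of the adenylyl cyclases, Adcy6 was at 128 CPM in WT against 73.8 in BMD and 91.2 in DMD, with log2 ratios of -0.79 (-0.95 to -0.63) in BMD and -0.48 (-0.66 to -0.30) in DMD. Adcy9 was at 119 CPM in WT against 81.2 in BMD and 83.4 in DMD, with log2 ratios of -0.55 (-0.71 to -0.39) in BMD and -0.51 (-0.70 to -0.33) in DMD. At the finer clustering, given below, Adcy9 in BMD lay below WT in the cluster led by Xirp2 and not in the other large cluster. Adcy5 had log2 ratios of -0.05 (-0.11 to 0.01) in BMD and 0.14 (0.08 to 0.21) in DMD. Both intervals of Adcy5 lay inside 1.5-fold in either direction. Adcy1 was at 8.74 CPM in WT against 5.03 in BMD and 6.87 in DMD from 56, 34 and 28 UMIs, with log2 ratios of -0.80 (-1.46 to -0.16) in BMD and -0.35 (-1.06 to 0.33) in DMD.

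Of the phosphodiesterases that were lower, Pde4a, a cAMP-specific enzyme, was at 83.0 CPM in WT against 55.8 in BMD and 43.9 in DMD, with log2 ratios of -0.57 (-0.77 to -0.38) in BMD and -0.92 (-1.17 to -0.67) in DMD. Pde2a, which cyclic GMP stimulates, was at 57.3 CPM in WT against 43.6 in BMD and 34.1 in DMD, with log2 ratios of -0.39 (-0.62 to -0.17) in BMD and -0.75 (-1.04 to -0.46) in DMD. In both genes DMD was the lowest library and WT the highest. Pde3a had log2 ratios of -0.35 (-0.38 to -0.32) in BMD and -0.56 (-0.59 to -0.53) in DMD, just inside 1.5-fold in DMD (0.585 on the log2 scale). With TMM factors the DMD ratio was -0.64 and as the mean over nuclei -0.77, both past 1.5-fold. The scaffold gene Pde4dip was at 4176 CPM in WT against 3048 in BMD and 2899 in DMD, with log2 ratios of -0.45 (-0.48 to -0.43) in BMD and -0.53 (-0.56 to -0.50) in DMD.

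Pde4d was at 795 CPM in WT against 814 in BMD and 839 in DMD, with log2 ratios of 0.03 (-0.02 to 0.09) in BMD and 0.08 (0.02 to 0.14) in DMD. Pde4b had log2 ratios of -0.10 (-0.14 to -0.05) in BMD and -0.13 (-0.18 to -0.08) in DMD and Pde7b, another cAMP-specific enzyme, of -0.27 (-0.32 to -0.22) in BMD and -0.08 (-0.14 to -0.02) in DMD. All 6 of these intervals lay inside 1.5-fold in either direction.

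**Figure D3:**
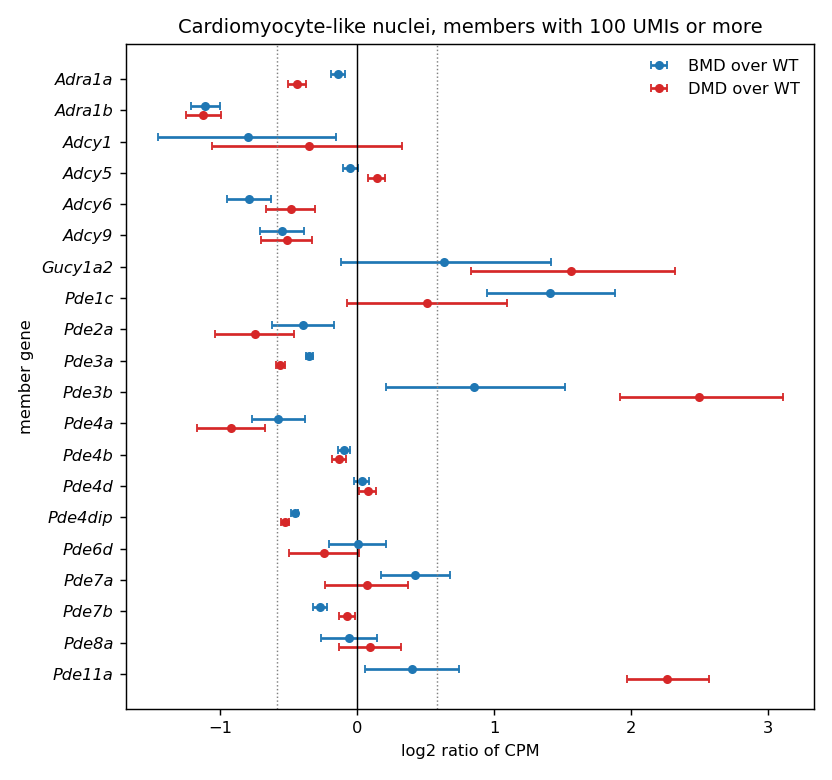
Log2 ratio of CPM in cardiomyocyte-like nuclei for the 20 genes with at least 100 UMIs, BMD over WT and DMD over WT; bars are exact 95% intervals for counting error, and dotted lines mark 1.5-fold. Adra1b lies near -1.1 in both comparisons, Pde11a and Pde3b lie beyond 2 in DMD, and Pde4d lies near 0.

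Among the genes that were higher, Pde11a, an enzyme that degrades both messengers, was at 19.5 CPM in WT against 25.7 in BMD and 93.7 in DMD, so that DMD stood apart from the other libraries. Its log2 ratio was 0.40 (0.06 to 0.74) in BMD and 2.26 (1.97 to 2.57) in DMD. In the free RNA of barcodes with at most 50 UMIs, Pde11a was at 13.3 CPM in WT against 6.31 in BMD and 33.8 in DMD, also highest in DMD. Free RNA was subtracted among the alternatives given below, and its part was not tested beyond this.

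Pde3b, the second enzyme of the Pde3 family, was at 4.99 CPM in WT against 9.02 in BMD and 28.2 in DMD, with log2 ratios of 0.85 (0.21 to 1.52) in BMD and 2.5 (1.92 to 3.11) in DMD. Gucy1a2 was at 3.90 CPM in WT against 6.06 in BMD and 11.5 in DMD from 25, 41 and 47 UMIs, with log2 ratios of 0.64 (-0.12 to 1.42) in BMD and 1.56 (0.83 to 2.32) in DMD. Both genes had higher levels in other classes. In fibroblast-like nuclei Pde3b was at 424 CPM in WT against 459.7 in BMD and 473 in DMD, and Gucy1a2 was highest in pericyte or smooth muscle-like nuclei. In the cardiomyocyte-like nuclei the 11 fibroblast markers summed to 312 CPM in WT against 283 in BMD and 1223 in DMD, with none of them at 0, and free RNA was estimated at 2.78% of their UMIs in WT against 4.68% in BMD and 8.33% in DMD. After subtraction of free RNA the log2 ratio of Pde3b in DMD was 3.71 and in BMD 1.98, against a WT level of which most had been subtracted. No UMIs of Gucy1a2 were left in any library. Without the cluster of 405 nuclei, which held 60 WT, 112 BMD and 233 DMD nuclei and had a median of 11.7% mitochondrial UMIs, the DMD ratio was 2.35 for Pde3b and 0.79 for Gucy1a2. The part of other cell types in these ratios was not tested beyond this.

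Pde1c was at 8.43 CPM in WT against 22.3 in BMD and 12.0 in DMD from 54, 151 and 49 UMIs, with log2 ratios of 1.41 (0.95 to 1.88) in BMD and 0.51 (-0.08 to 1.10) in DMD. It was higher in BMD, while the interval of DMD held 0. The 12 endothelial markers, from the class where Pde1c was highest, summed to 131 CPM in WT against 188 in BMD and 371 in DMD in these nuclei. They were above WT in both mutants and highest in DMD, and their part was not tested.

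At a finer clustering the 2 large clusters with cardiomyocyte markers were one of 2538 nuclei, named cardiomyocyte-like, and one of 1993 nuclei led by Xirp2, Hs3st2 and Acta1, which raised 11 of 11 cardiomyocyte markers but was left unnamed, since a Schwann cell marker stood among its leading genes. The libraries contributed unequally: 1716 nuclei of WT, 428 of BMD and 394 of DMD fell in the first, and 289, 1061 and 643 in the second. Adra1b was at 372 CPM in WT against 201 in BMD and 205 in DMD in the first cluster and at 242 CPM in WT against 155 in BMD and 140.4 in DMD in the second, so that both mutants were below WT within each. Pde11a was at 21.0 CPM in WT against 45.3 in BMD and 112 in DMD in the first and at 12.6 CPM in WT against 20.8 in BMD and 91.5 in DMD in the second, with DMD the highest in both. Pde1c behaved differently. In the first cluster it was at 8.14 CPM in WT against 4.90 in BMD and 6.64 in DMD, with BMD the lowest, and in the cluster led by Xirp2 at 11.6 CPM in WT against 30.1 in BMD and 15 in DMD, with BMD the highest. In UMIs, BMD had 8 of Pde1c in the first cluster and 140 in the second.

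Pde3b was at 4.73 CPM in WT against 5.51 in BMD and 22.9 in DMD in the first cluster, from 25, 9 and 31 UMIs. In the second, Pde3b was at 7.37 CPM in WT against 9.45 in BMD and 26.3 in DMD, from 7, 44 and 63 UMIs. DMD stood apart in both clusters, while BMD was above WT by less than 1.5-fold. In the first cluster Pde4a was lower in both mutants, at 90.1 CPM in WT against 69.8 in BMD and 61.3 in DMD, while in the second the BMD value did not lie below WT, at 52.7 CPM in WT against 54.1 in BMD and 38.4 in DMD. Pde3a was at 3709 CPM in WT against 3273 in BMD and 2913 in DMD in the first and 2695 CPM in WT against 2734 in BMD and 2274 in DMD in the second cluster. For Pde3a the level of BMD in the second cluster was close to that of WT. Adcy1, counted as lower in BMD above, was at 10.0 CPM in WT against 9.80 in BMD and 10.3 in DMD in the first cluster. In the second, Adcy1 was at 1.05 CPM in WT against 3.87 in BMD and 5.85 in DMD, from 1, 18 and 14 UMIs. The BMD value of Adcy1 was thus close to WT in the first cluster and not below it in the second. Adcy9 was at 124 CPM in WT against 126 in BMD and 113 in DMD in the first cluster, where BMD was not below WT. In the second, both mutants lay below WT in Adcy9, at 67.5 CPM in BMD and 68.5 in DMD.

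Promoter sequences are shown for 3 of the genes past 1.5-fold, as examples: Adra1b, a receptor lower in both mutants, Pde4a, a phosphodiesterase lower in DMD, and Pde11a, a phosphodiesterase higher in DMD. They are from RefSeq on the rat build GRCr8, read from 250 bases before to 50 after an annotated start, and 37 of the 54 gene symbols had such an entry. Capitals mark TGACG, the core of the cAMP response element, searched on both strands.
Adra1b, chr10:28814298-28814597, minus strand: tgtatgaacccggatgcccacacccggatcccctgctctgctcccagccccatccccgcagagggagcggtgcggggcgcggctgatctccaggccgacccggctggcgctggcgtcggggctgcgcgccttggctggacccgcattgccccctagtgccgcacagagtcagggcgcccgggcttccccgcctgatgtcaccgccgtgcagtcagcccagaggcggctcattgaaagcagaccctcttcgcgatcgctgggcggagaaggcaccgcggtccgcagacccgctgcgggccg
Pde4a, chr8:27966737-27967036, plus strand: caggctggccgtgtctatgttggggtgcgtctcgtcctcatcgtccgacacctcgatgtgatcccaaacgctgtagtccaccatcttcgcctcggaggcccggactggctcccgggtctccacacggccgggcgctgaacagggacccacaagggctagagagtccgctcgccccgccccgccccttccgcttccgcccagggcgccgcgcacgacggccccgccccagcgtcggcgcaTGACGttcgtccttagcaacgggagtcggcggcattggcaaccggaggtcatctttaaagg
Pde11a, chr3:81704348-81704647, minus strand: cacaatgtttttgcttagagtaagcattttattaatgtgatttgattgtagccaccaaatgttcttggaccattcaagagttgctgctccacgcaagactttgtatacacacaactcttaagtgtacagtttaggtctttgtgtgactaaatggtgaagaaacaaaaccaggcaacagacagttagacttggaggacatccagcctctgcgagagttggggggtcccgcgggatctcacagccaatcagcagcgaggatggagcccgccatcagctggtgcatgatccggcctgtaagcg
Pde4a had 4 listed starts, of which 2 had the core in their window, and the window shown was chosen among those. The core was found once in it, and in none of the windows of Adra1b and Pde11a. Of the 50 windows of the cyclic nucleotide genes, 9 held it (18.0%), beside 21.2% of all 33469 windows. The full element TGACGTCA, which contains the core, was in 0 of the 50 windows and in 1.83% of all. A match in letters is no binding site, and the start used was not analysed here.

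In fibroblast-like nuclei, the alpha subunit Gucy1a1 was the gene with the lowest ratio to WT in DMD, and Adcy7 the one with the highest in both mutants. Of 29 genes measured, 1 was higher and 6 were lower in BMD, where 5.61% of all 9453 genes measured were higher and 9.54% lower. In DMD, 2 were higher and 5 lower, where 4.83% of all genes were higher and 4.52% lower. The median log2 ratio of the 29 genes was -0.12 in BMD and -0.17 in DMD, beside -0.05 and -0.02 for all genes. The class held 3524 WT, 1650 BMD and 2256 DMD nuclei and was made up differently in each library. At the finer clustering, a fibroblast-like cluster led by Pi16, Islr and Colec11 held 646 WT, 524 BMD and 825 DMD nuclei. Another, led by Aox3, Trhde and Dlg2, held 1379, 576 and 636. The part of this mix in the ratios below was not tested.

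Gucy1a1 was at 188 CPM in WT against 77.6 in BMD and 85.9 in DMD, with both mutants below WT and log2 ratios of -1.28 (-1.50 to -1.07) in BMD and -1.13 (-1.33 to -0.94) in DMD. The partner subunit Gucy1b1 was at 23.3 CPM in WT against 17.8 in BMD and 16.3 in DMD, with log2 ratios of -0.39 (-0.89 to 0.10) in BMD and -0.51 (-1.0 to -0.04) in DMD, and Gucy1a2 had ratios of -0.12 (-0.23 to 0.00) in BMD and 0.02 (-0.09 to 0.12) in DMD. The pericyte markers, whose class has the highest Gucy1a1, summed in the fibroblast-like nuclei to 573 CPM in WT against 509.6 in BMD and 680.3 in DMD, lowest in BMD as Gucy1a1 was and highest in DMD. Their part was not tested. In the pericyte or smooth muscle-like nuclei themselves Gucy1a1 had log2 ratios of 0.16 (0.02 to 0.29) in BMD and -0.21 (-0.35 to -0.07) in DMD.

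Among the adenylyl cyclases of fibroblast-like nuclei, Adcy7 was higher in both mutants, at 30.1 CPM in WT against 62.5 in BMD and 65.2 in DMD, with log2 ratios of 1.06 (0.73 to 1.38) in BMD and 1.12 (0.81 to 1.43) in DMD. Adcy7 had its highest level in T or B cell-like nuclei, and macrophage-like nuclei were next. In the fibroblast-like nuclei the 10 macrophage markers summed to 44.7 CPM in WT against 47.8 in BMD and 61.2 in DMD and the 13 T or B cell markers to 15.7 CPM in WT against 22.9 in BMD and 26.5 in DMD. Adcy6 was lower in both, at 65.7 CPM in WT against 33.8 in BMD and 43.4 in DMD, with log2 ratios of -0.96 (-1.30 to -0.63) in BMD and -0.60 (-0.89 to -0.31) in DMD. Adcy3 was lower in both, with log2 ratios of -0.79 (-1.31 to -0.29) in BMD and -0.70 (-1.18 to -0.24) in DMD. The soluble, bicarbonate-activated Adcy10 was lower in both, with log2 ratios of -1.11 (-1.73 to -0.52) in BMD and -0.94 (-1.49 to -0.41) in DMD. Adcy7 thus lay opposite to the other cyclases past 1.5-fold in both mutants. Adcy4 was higher in DMD, with a ratio of 0.87 (0.32 to 1.43).

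Of the phosphodiesterases in fibroblast-like nuclei, Pde4c was lower in BMD, at 31.9 CPM in WT against 13 in BMD and 22.7 in DMD, with log2 ratios of -1.30 (-1.85 to -0.78) in BMD and -0.49 (-0.90 to -0.09) in DMD. Pde9a was just past 1.5-fold in BMD, at -0.60 (-1.05 to -0.16), and Pde12 past it in DMD, at -0.75 (-1.50 to -0.04). Pde4b lay just inside, at -0.57 (-0.72 to -0.42) in BMD and -0.50 (-0.64 to -0.36) in DMD. Pde3a differed in direction between the mutants: it was at 493 CPM in WT against 395 in BMD and 630.5 in DMD, with log2 ratios of -0.32 (-0.42 to -0.22) in BMD and 0.36 (0.27 to 0.44) in DMD. Pde4d was at 893 CPM in WT against 892 in BMD and 918 in DMD, the 3 libraries being within counting error of each other.

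**Figure D4:**
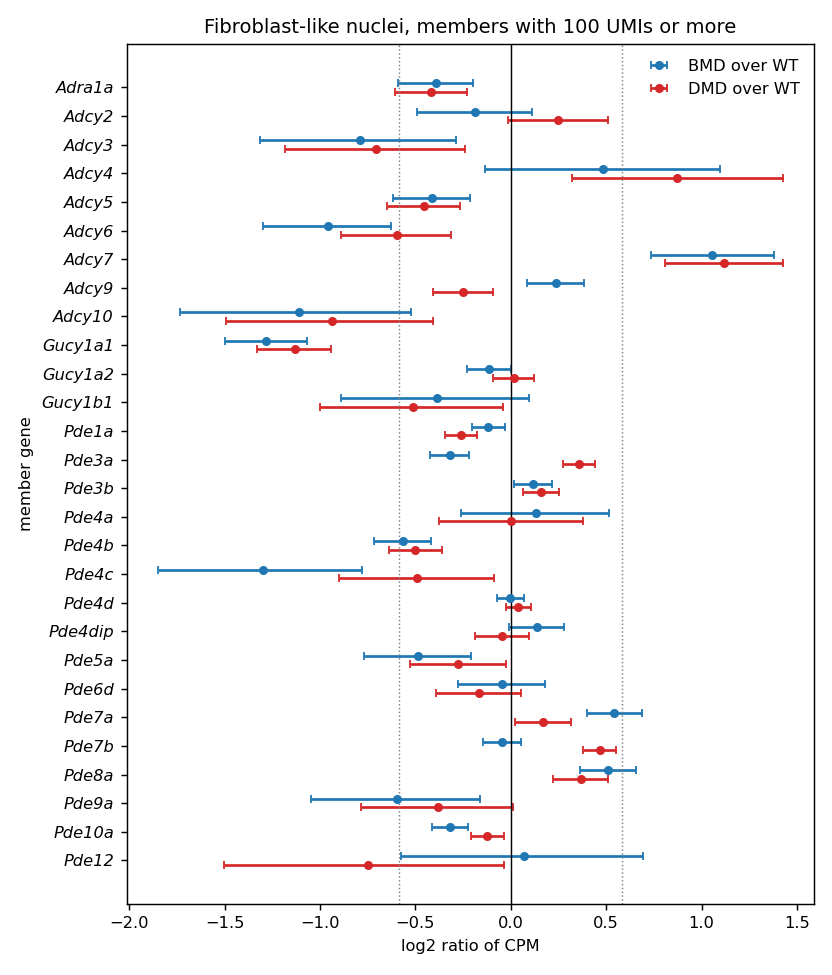
Log2 ratio of CPM in fibroblast-like nuclei for 28 of the 29 genes with at least 100 UMIs, BMD over WT and DMD over WT; bars are exact 95% intervals for counting error, and dotted lines mark 1.5-fold. Adcy7 lies above 1 in both comparisons, Gucy1a1 below -1 in both, and Pde4d on 0.

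In pericyte or smooth muscle-like nuclei the direction of Pde3a was the opposite of that in cardiomyocyte-like nuclei. Pde3a was at 2791 CPM in WT against 4871 in BMD and 3616 in DMD, with log2 ratios of 0.80 (0.72 to 0.89) in BMD and 0.37 (0.28 to 0.46) in DMD. In the finer clustering it was at 3097 CPM in WT against 4801 in BMD and 4174 in DMD in the pericyte-like nuclei and at 2554 CPM in WT against 5309.7 in BMD and 2720.2 in DMD in the smooth muscle-like nuclei, where DMD was close to WT. Of these smooth muscle-like nuclei, 33.3% were scored as doublets. The cardiomyocyte markers summed here to 741 CPM in WT against 1756 in BMD and 1283 in DMD, and the 8 smooth muscle markers to 1498 CPM in WT against 2680.2 in BMD and 2338 in DMD, each in the same order as Pde3a. After subtraction of free RNA the ratios of Pde3a were 0.89 and 0.48. Pde6d was higher in both mutants, at 76.8 CPM in WT against 129 in BMD and 133 in DMD, with log2 ratios of 0.75 (0.20 to 1.31) in BMD and 0.79 (0.27 to 1.33) in DMD. Pde4d was at 248 CPM in WT against 329 in BMD and 389 in DMD, with log2 ratios of 0.40 (0.09 to 0.72) in BMD and 0.65 (0.35 to 0.95) in DMD, past 1.5-fold in DMD. Pde8b was at 639.9 CPM in WT against 389.6 in BMD and 548 in DMD, with log2 ratios of -0.72 (-0.97 to -0.47) in BMD and -0.22 (-0.44 to -0.01) in DMD.

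**Figure D5:**
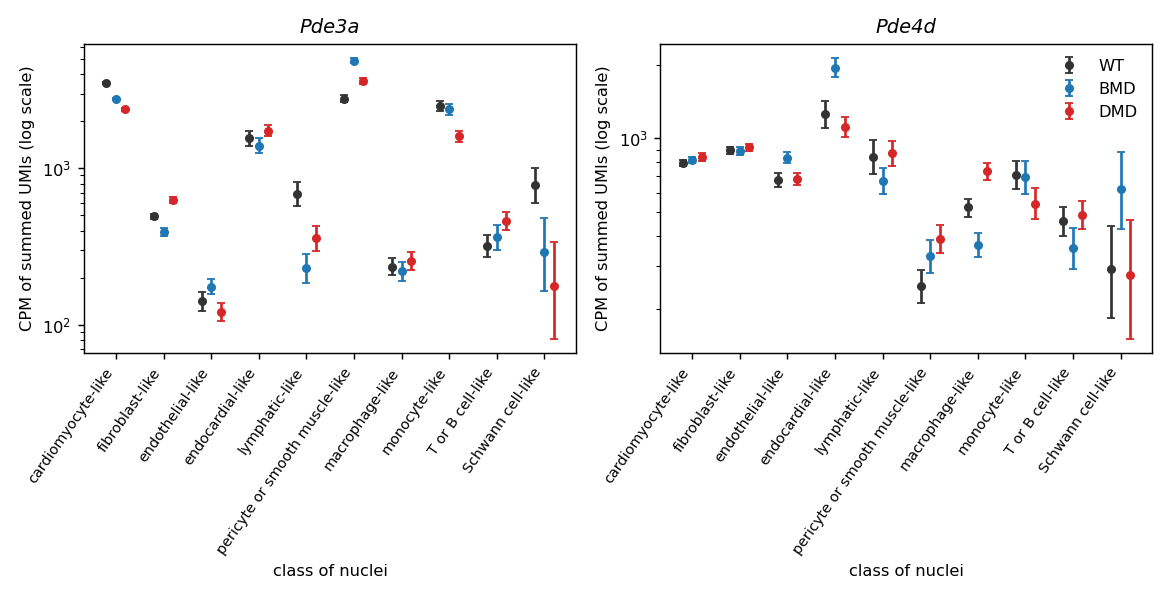
CPM (log scale) of Pde3a and Pde4d in each class of nuclei and library, with exact Poisson 95% intervals; each point is 1 library. Pde3a is highest in WT among the cardiomyocyte-like libraries and lowest in WT among the pericyte or smooth muscle-like libraries, and Pde4d is highest in the endocardial-like nuclei of BMD.

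In endothelial-like nuclei, Adcy5 was past 1.5-fold higher in both mutants, at 18.5 CPM in WT against 30.7 in BMD and 33.6 in DMD from 25, 56 and 67 UMIs, with log2 ratios of 0.74 (0.03 to 1.48) in BMD and 0.86 (0.18 to 1.59) in DMD. The cardiomyocyte markers, from the class with the highest Adcy5, summed to 765 CPM in WT against 1298 in BMD and 1166 in DMD in the same nuclei, and so were higher in both mutants as well; their part was not tested. After subtraction of free RNA no UMIs of Adcy5 were left in WT, so that no ratio could be given. Pde2a was past 1.5-fold lower in BMD and not in DMD, at 207 CPM in WT against 114 in BMD and 182 in DMD, with log2 ratios of -0.86 (-1.12 to -0.59) in BMD and -0.19 (-0.41 to 0.04) in DMD. In endocardial-like nuclei Pde4d had log2 ratios of 0.63 (0.41 to 0.86) in BMD and -0.17 (-0.39 to 0.06) in DMD, and Pde3a of -0.16 (-0.38 to 0.07) in BMD and 0.16 (-0.03 to 0.36) in DMD.

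In macrophage-like nuclei, Pde3b was higher in both mutants, at 271 CPM in WT against 519 in BMD and 427 in DMD, with log2 ratios of 0.94 (0.72 to 1.16) in BMD and 0.66 (0.43 to 0.88) in DMD. Pde4d lay on opposite sides of WT there, at 522 CPM in WT against 366 in BMD and 733 in DMD, with log2 ratios of -0.51 (-0.71 to -0.31) in BMD and 0.49 (0.32 to 0.66) in DMD. Of these nuclei, 41.1% in WT against 14.4% in BMD and 18.3% in DMD had over 5% mitochondrial UMIs. Without such nuclei, Pde4d was at -0.96 in BMD and 0.14 in DMD. Pde3b was then at 0.74 in BMD and, inside 1.5-fold, at 0.42 in DMD. The finer clustering, looked at after seeing the data, split this class into a part led by F13a1, Cd163 and Mrc1, of 365 WT, 470 BMD and 373 DMD nuclei, and a part led by Spp1, Edil3 and Lilrb4, of 321, 109 and 139 nuclei, so that the class was made up differently in each library. Pde3b was at 349.9 CPM in WT against 591 in BMD and 482 in DMD in the first part and at 198 CPM in WT against 294 in BMD and 299 in DMD in the second, with both mutants above WT in each. Its log2 ratios were 0.76 (0.50 to 1.01) in BMD and 0.46 (0.20 to 0.73) in DMD in the first and 0.57 (0.01 to 1.12) in BMD and 0.60 (0.08 to 1.11) in DMD in the second part. Pde4d was at 640.2 CPM in WT against 310.1 in BMD and 749 in DMD in the first part and at 442 CPM in WT against 647 in BMD and 761 in DMD in the second, so that BMD was below WT in the first and above it in the second.

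In the macrophage-like class as a whole, Pde1c was at 15.1 CPM in WT against 18.3 in BMD and 90.7 in DMD, with log2 ratios of 0.27 (-0.82 to 1.37) in BMD and 2.59 (1.80 to 3.46) in DMD. The endothelial markers summed to 790.5 CPM in WT against 828 in BMD and 1708 in DMD in the macrophage-like nuclei, and so were highest in DMD as Pde1c was; their part was not tested.

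In lymphatic-like nuclei, Pde10a was higher in both mutants, at 155 CPM in WT against 262 in BMD and 285 in DMD, with log2 ratios of 0.76 (0.15 to 1.41) in BMD and 0.88 (0.27 to 1.54) in DMD. Gucy1a1 was lower in both, with log2 ratios of -0.82 (-1.46 to -0.17) in BMD and -1.15 (-1.88 to -0.44) in DMD. Pde3a was lower in both, at 688 CPM in WT against 232 in BMD and 359 in DMD, with log2 ratios of -1.57 (-1.98 to -1.17) in BMD and -0.94 (-1.31 to -0.56) in DMD. Pde4dip was at 656 CPM in WT against 239 in BMD and 394 in DMD, with log2 ratios of -1.46 (-1.86 to -1.06) in BMD and -0.74 (-1.11 to -0.37) in DMD. The cardiomyocyte markers summed in this class to 2274 CPM in WT against 1428 in BMD and 2745 in DMD, and so were lowest in BMD as both genes were. Without the nuclei scored as doublets, which were 16.4% of this class in WT, 6.84% in BMD and 14.5% in DMD, the ratios of Pde4dip were 0.10 and 0.27, so that its direction turned, and those of Pde3a -0.68 and -0.46. Among the genes with at least 100 UMIs in the class, none was past 1.5-fold in the same direction in both mutants in the endocardial-like, monocyte-like or T or B cell-like nuclei. Below that count, Pde10a in endocardial-like nuclei had 44, 12 and 39 UMIs and log2 ratios of -2.11 (-3.16 to -1.16) in BMD and -1.13 (-1.79 to -0.48) in DMD. In Schwann cell-like nuclei Pde10a went the other way, at 1.72 (0.34 to 3.26) in BMD and 2.83 (1.63 to 4.26) in DMD, from 7, 15 and 32 UMIs. Pde3a there was at -1.43 (-2.35 to -0.60) in BMD and -2.15 (-3.34 to -1.13) in DMD. These are examples below that count, chosen after their values were seen.

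The other genes of the pathway (G proteins, kinases and their anchors, phosphatase inhibitors, cyclic nucleotide-gated channels, natriuretic peptide receptors and transcription factors) were described from a list of textbook genes. Of the 78 found, 54 were measured in cardiomyocyte-like nuclei (at least 100 UMIs), of which 5 were higher and 5 lower in BMD and 6 higher and 5 lower in DMD, by the same rule as above and so beside the same shares of all genes. Their median log2 ratio was -0.08 in BMD and -0.07 in DMD. Creb5, a transcription factor of the CREB family, was at 22.5 CPM in WT against 73.2 in BMD and 73.3 in DMD, with log2 ratios of 1.70 (1.43 to 1.98) in BMD and 1.71 (1.41 to 2.0) in DMD. Gnao1, the alpha subunit of the inhibitory G protein Go, was at 231 CPM in WT against 394 in BMD and 386 in DMD, with log2 ratios of 0.77 (0.68 to 0.87) in BMD and 0.74 (0.64 to 0.85) in DMD. The mutants were above WT in both genes and close to each other.

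Gnal, a stimulatory alpha subunit, had log2 ratios of 0.90 (0.27 to 1.55) in BMD and 1.07 (0.38 to 1.76) in DMD, and Rgs2, which shortens signalling through Gq, of 1.26 (0.70 to 1.84) in BMD and 0.80 (0.13 to 1.47) in DMD, both on fewer than 100 UMIs a library. Npr3, the clearance receptor of natriuretic peptides, was at 95.1 CPM in WT against 126 in BMD and 219.7 in DMD, with log2 ratios of 0.41 (0.26 to 0.56) in BMD and 1.21 (1.06 to 1.36) in DMD. Npr3 is also a marker of endocardial cells, and in endocardial-like nuclei it was at 967 CPM in WT against 828 in BMD and 901 in DMD. In the cardiomyocyte-like nuclei the other 7 endocardial markers summed to 91.9 CPM in WT against 68.6 in BMD and 134 in DMD, and the endothelial markers and free RNA given above were also highest in DMD. Their part in the level of Npr3 was not tested. Adora1, the inhibitory adenosine receptor, was lower, at -0.70 (-1.30 to -0.11) in BMD and -1.16 (-2.0 to -0.38) in DMD, from 63, 41 and 18 UMIs. Cacna1c, the L-type calcium channel that protein kinase A regulates, was at 1992 CPM in WT against 1464 in BMD and 1402 in DMD, with log2 ratios of -0.44 (-0.48 to -0.41) in BMD and -0.51 (-0.55 to -0.46) in DMD. Abcc4, which exports cyclic AMP, had ratios of -0.41 (-0.54 to -0.29) in BMD and -0.47 (-0.62 to -0.32) in DMD, inside 1.5-fold as those of Cacna1c were.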

How the data were processed

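Nuclei sorted by DAPI from the hearts of WT, BMD and DMD rats were measured in 1 library per genotype. The kit is 10x Genomics 3′ v3.1 by the labels and by the study's methods, but its results section speaks of 5′ chemistry, and which end was read could not be settled here. The authors counted UMIs with Cell Ranger, and the deposited values are raw counts per gene and barcode; the submitters' processing notes name the genome build rn6, and whether introns were counted is not given in the sources used here. The file headers name Cell Ranger 6.0.1 for an aggregate that holds WT and Cell Ranger 4 for BMD and DMD. WT counts were the barcodes of the aggregate with the WT suffix; BMD and DMD counts came from their own files, of which the aggregate keeps 76.1% and 92.9% of the UMIs.

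In each library, barcodes were ranked by UMIs and as many of the highest were kept as the study counts nuclei. Counts were clustered with scanpy 1.11.5 (2000 variable genes, 30 principal components, 15 neighbours, Leiden resolution 0.5), leaving out the described genes, mitochondrial genes, sex-linked genes and the 8 genes the study names for cardiomyocytes. A cluster was named from a marker list when at least 3 markers were 2-fold raised; clusters with over 50% Scrublet doublets stayed unnamed, a rule set after the clusters were seen. Sums of counts carry exact Poisson intervals and log2 ratios exact conditional binomial intervals at 95% (SciPy 1.17.1), for counting error only. Where a count is 0, 3 UMIs set the limit. Intervals and calls were tested on simulated Poisson counts with set fold changes. These hold no variation between nuclei or animals, so that test says nothing about either. No filter on doublets or mitochondrial UMIs was used in the values reported.

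Named genes were Pde3a, Pde4d, Adrb1, those past 1.5-fold in cardiomyocyte-like nuclei, those past 1.5-fold the same way in both mutants in another class, those with a class called highest (with values for up to 4 a class), and the 8 pathway genes with the largest log2 ratio nearer 0. Other genes named were chosen after their values were seen. Genes, lists and tests were chosen with earlier results of these data known. Alternatives were 1000 UMIs per nucleus, removal of doublets or of nuclei over 5% mitochondrial UMIs, Leiden resolution 1.0, subtraction of free RNA, TMM factors (edgeR 4.0.16), the mean over nuclei, the thinned aggregate, other count filters, 2-fold and all nuclei. 1 gene of the 55 enters the counts but is not reported here. Reads, and the data of the study other than these counts, were not analysed here.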

Additional observations from a re-analysis of the deposited data

Results flagged for a closer look

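Among genes with at least 100 UMIs in a class, those below were past 1.5-fold in opposite directions in different classes of nuclei under the same comparison with WT, with intervals for counting error off 0. The difference between classes was not tested, since each genotype had 1 library.

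In BMD, the log2 ratio of Pde3a was 0.80 in pericyte or smooth muscle-like nuclei and -1.57 in lymphatic-like nuclei. That of Pde3b was 0.85 in cardiomyocyte-like and 0.94 in macrophage-like nuclei and -0.85 (-1.65 to -0.03) in lymphatic-like nuclei. At the finer clustering, Pde3b in BMD was above WT by less than 1.5-fold within each large cluster with cardiomyocyte markers. The lymphatic-like value came from 26 UMIs in WT and 30 in BMD. The log2 ratio of Pde10a was 0.76 in lymphatic-like nuclei, -0.59 in macrophage-like nuclei and -1.0 in T or B cell-like nuclei. In DMD, the log2 ratio of Adcy5 was 0.86 in endothelial-like nuclei and -1.12 in macrophage-like nuclei, where it was at 125 CPM in WT against 108 in BMD and 57.7 in DMD.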

How the results depend on the processing

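No paired analysis was possible because each genotype had 1 library, and leaving out a replicate was not possible for the same reason. Depth limited genes such as Adrb1, and no setting replaces the missing animals. In cardiomyocyte-like nuclei, the 3 higher and 3 lower genes in BMD became 1 higher at Leiden resolution 1.0, 9 and 7 with no filter on low counts, 1 and 1 at 2-fold, and 1 and 10 over all nuclei. The 3 higher and 3 lower in DMD became 1 higher at Leiden resolution 1.0, 17 higher with no filter, 6 lower with TMM factors or the mean over nuclei, 1 lower at 2-fold, and 5 and 5 over all nuclei. At Leiden resolution 1.0 the cluster led by Xirp2 was unnamed by the naming rule, since a marker of another class stood among its leading genes; with it counted, an alternative chosen after seeing the data, no count moved by over 1.5 times. The 5 higher and 5 lower pathway genes in BMD became 1 and 3 at Leiden resolution 1.0, 3 lower in the thinned aggregate, 3 higher with at least 200 UMIs, 9 and 12 with no filter, and 2 and 0 at 2-fold. The 6 and 5 in DMD became 3 lower with at least 200 UMIs, 20 and 8 with no filter, and 3 and 2 at 2-fold. In fibroblast-like nuclei, the 1 higher gene in BMD became 2 with nuclei of at least 1000 UMIs, the mean over nuclei or no filter, and the 6 lower became 3 at 2-fold and 10 over all nuclei. The 2 higher and 5 lower in DMD became 1 and 3 with at least 200 UMIs, 5 higher with no filter, 1 and 1 at 2-fold, and 5 higher over all nuclei.

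Of the 800 values of 76 log2 ratios of named genes under 12 alternatives, 678 lay within the counting interval of the value reported, 109 moved outside it, and 13 values past 1.5-fold changed direction. The setting with no filter and the thinned aggregate each gave 76 of the 678. The former changes only counts under 3 UMIs and the latter draws on the same UMIs, so these could hardly move a ratio. Pde1c in cardiomyocyte-like nuclei of BMD was at -0.58 at Leiden resolution 1.0. Pde4dip in lymphatic-like nuclei was at 0.10 in BMD and 0.27 in DMD without doublets, and at 0.19 in DMD as the mean over nuclei. At Leiden resolution 1.0 the monocyte-like class held clusters of 572 and 135 nuclei, the larger led by Spp1, Edil3 and Lilrb4, in place of 296. Pde3a in these nuclei of DMD was then at 0.44. The others were over all nuclei, where classes mix: in BMD Pde3b was at -0.18, Gucy1a2 at -0.30, Pde10a at -0.66 and Pde3a at -0.13, and in DMD Pde2a was at 0.062, Adcy5 at -0.20 and Pde10a at -0.048. The cause of these changes was not tested. Adra1b in cardiomyocyte-like nuclei ranged from -1.11 to -0.85 in BMD and from -1.37 to -0.86 in DMD, and Pde11a in DMD from 1.63 to 2.34, over all 12 alternatives. The number of genes with a class called highest was 20 to 26 in its 4 alternatives, beside 19.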
